A study of Drosophila melanogaster with 17 samples.

Results

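The DNA replication machinery of Drosophila melanogaster was followed through 38 genes listed by FlyBase symbol, from origin binding to nucleotide supply. Of these, 35 were matched to an identifier of the count table, out of 17737 genes in all, and all 35 passed the filter on low counts. Orc1, RPA2 and RPA3 were not matched and were not analysed here. By role, the matched genes are 5 subunits of the origin recognition complex, the 6 subunits of the Mcm2-7 ring, 3 genes of ring loading and its inhibitor, 7 genes of helicase activation, 4 polymerase subunits, 4 genes of the clamp and clamp loader, 1 subunit of the single-strand binding protein RPA, 2 genes of lagging strand maturation and 3 of nucleotide supply. Orc3 is listed under its older symbol lat, Mcm4 as dpa, Cdt1 as dup, Dbf4 as chif, Cdc45 as CDC45L and RPA1 as RpA-70.

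Replication starts where the origin recognition complex sits on DNA in G1 and, with Cdc6 and Cdt1, loads the Mcm2-7 ring, a step that geminin blocks once S phase has begun. The kinase Cdc7 with its partner Dbf4, together with Mcm10, Cdc45 and the GINS complex (Sld5, Psf1, Psf2 and Psf3), turns the loaded ring into the active helicase. Polymerase alpha with primase then lays down primers, polymerases epsilon and delta extend them on the sliding clamp PCNA, which the RFC complex loads, and Fen1 and DNA ligase join the lagging strand fragments. Many of these genes are transcribed in a pulse at the start of S phase under E2F. In the adult fly midgut the intestinal stem cells are the main dividing cells, and enteroblasts, their daughters, use the same machinery to endoreplicate as they become enterocytes. Notch signalling, which stem cells evoke in their daughters through the ligand Delta, drives the enterocyte fate, and its loss in progenitors is known to give clusters of stem-like and enteroendocrine cells.

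RNA was sequenced from 17 samples of sorted intestinal progenitor cells of adult virgin females. The control flies carried the driver that the labels name esgts, a temperature-sensitive driver based on esg, which is active in stem cells and their immediate daughters, and the Notch RNAi flies (esgts/NRNAi) carried it with an RNA interference construct against Notch (gene N). Flies of both genotypes spent 5 days at 25 °C, were then either kept germ-free or given Lactobacillus brevis or Lactobacillus plantarum as their only bacterium overnight, and spent a further 5 days at 29 °C. Each sample pooled 100 guts, from which small GFP-positive cells were collected by flow cytometry after elastase digestion. The groups hold 3 samples each, except germ-free controls with 2, because RNA of one was lost. Each sample is 1 pool of guts, so animals within a pool do not add to n, and RNAi acts only in cells where the driver is active.

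Library totals ran from 24192918 to 38237532 counts. Expression is given as counts per 1000000 (CPM) after TMM scaling, in the order of replicates 1 to 3, and comparisons as log2 fold change ± SE from edgeR's quasi-likelihood test, with p-values adjusted by Benjamini-Hochberg over the 11786 genes tested and a call at an adjusted p under 0.05. The knockdown matched the labels in every library, with N at 166 to 224 CPM in controls and 52.7 to 82.9 CPM under Notch RNAi. Of 7 listed progenitor markers, 6 were matched (esg was not), and summed to 1959 to 2244 CPM in controls and 1116 to 1223 CPM under Notch RNAi. That list holds N itself, and without it the sums were 1764 to 2032 CPM and 1044 to 1143 CPM. Enterocyte markers, which include digestive proteases, summed to 5079 to 18720 CPM, so their RNA was present in every library. Coordinates below are those of the Ensembl BDGP6 annotation, which may not be the build the authors used.

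Notch RNAi against control addresses what loss of Notch in progenitors does to replication gene expression. The machinery was higher under Notch RNAi in every microbiome condition. The 35 genes summed to 296 and 281 CPM in germ-free controls, 396, 371 and 372 CPM in L. brevis controls and 335, 308 and 320 CPM in L. plantarum controls. Under Notch RNAi the sums were 648, 584 and 720 CPM in germ-free flies, 1047, 1141 and 961 CPM with L. brevis and 669, 666 and 864 CPM with L. plantarum. Every Notch RNAi library lay above every control library, and the ratios of the group means were 2.25, 2.76 and 2.28 for germ-free, L. brevis and L. plantarum flies. In bulk samples a larger share of replicating cells and more replication RNA per cell cannot be told apart.

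**Figure D1:**
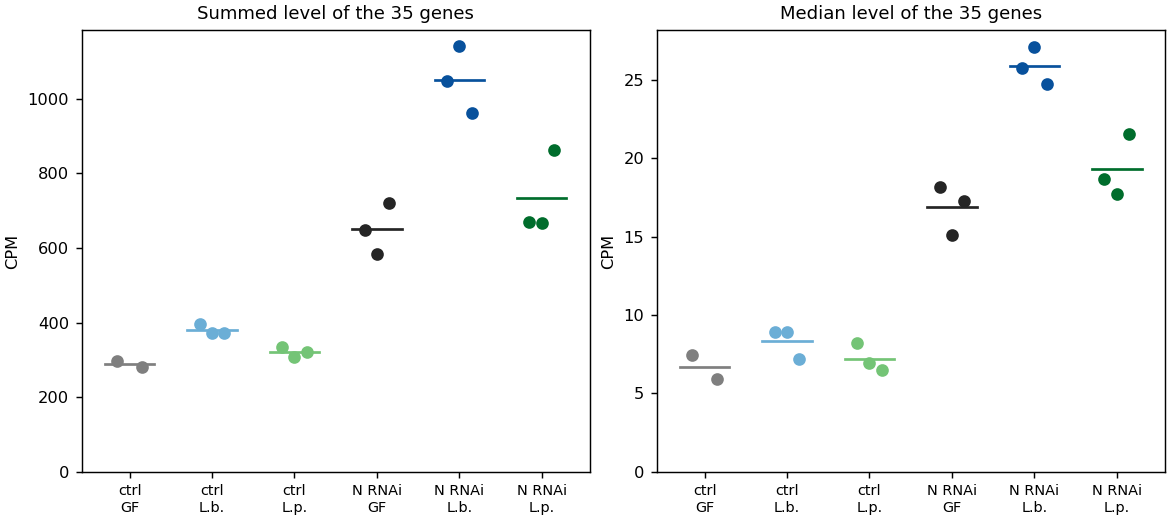
Summed CPM of the 35 replication genes (left) and their median CPM (right) in each of the 17 libraries, by group (ctrl, control; N RNAi, Notch RNAi; GF, germ-free; L.b., L. brevis; L.p., L. plantarum); points are libraries and lines group means. All Notch RNAi libraries lie above all controls, and within Notch RNAi the summed level of the 3 L. brevis libraries lies above that of the other 6.

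In germ-free flies, 30 of the 35 genes were called higher and 0 lower under Notch RNAi, where 17.5% of all tested genes passed upwards and 14.7% downwards. With L. brevis the count was 32 higher and 0 lower, against 22.3% and 20.3% of all genes, and with L. plantarum 30 higher and 0 lower, against 17.6% and 16.2%. Groups that did not overlap in CPM, with Notch RNAi higher, numbered 32, 32 and 31 of the 35, against 32.0%, 26.7% and 24.2% of all genes. The median log2 fold change of the 35 was 1.30, 1.39 and 1.23, and that of all tested genes 0.011, 0.003 and 0.037. The same 30 genes were called in all 3 conditions. Orc6 and Sld5 were called with L. brevis only, which does not show that their change differed between conditions, and chif, lat and Psf3 were called in none. In the mean of the 3 conditions the counts were 32 higher and 0 lower, against 29.6% and 26.9% of all genes, and the median was 1.33. Of the single calls, 25 of 30, 31 of 32 and 29 of 30 held under every alternative setting. In germ-free flies PolD1 and Mcm10 lost theirs when either of the 2 control libraries, or some of the Notch RNAi libraries, were left out, and RpA-70, PolE1 and Cdc6 when germ-free control replicate 1 was left out.

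**Figure D2:**
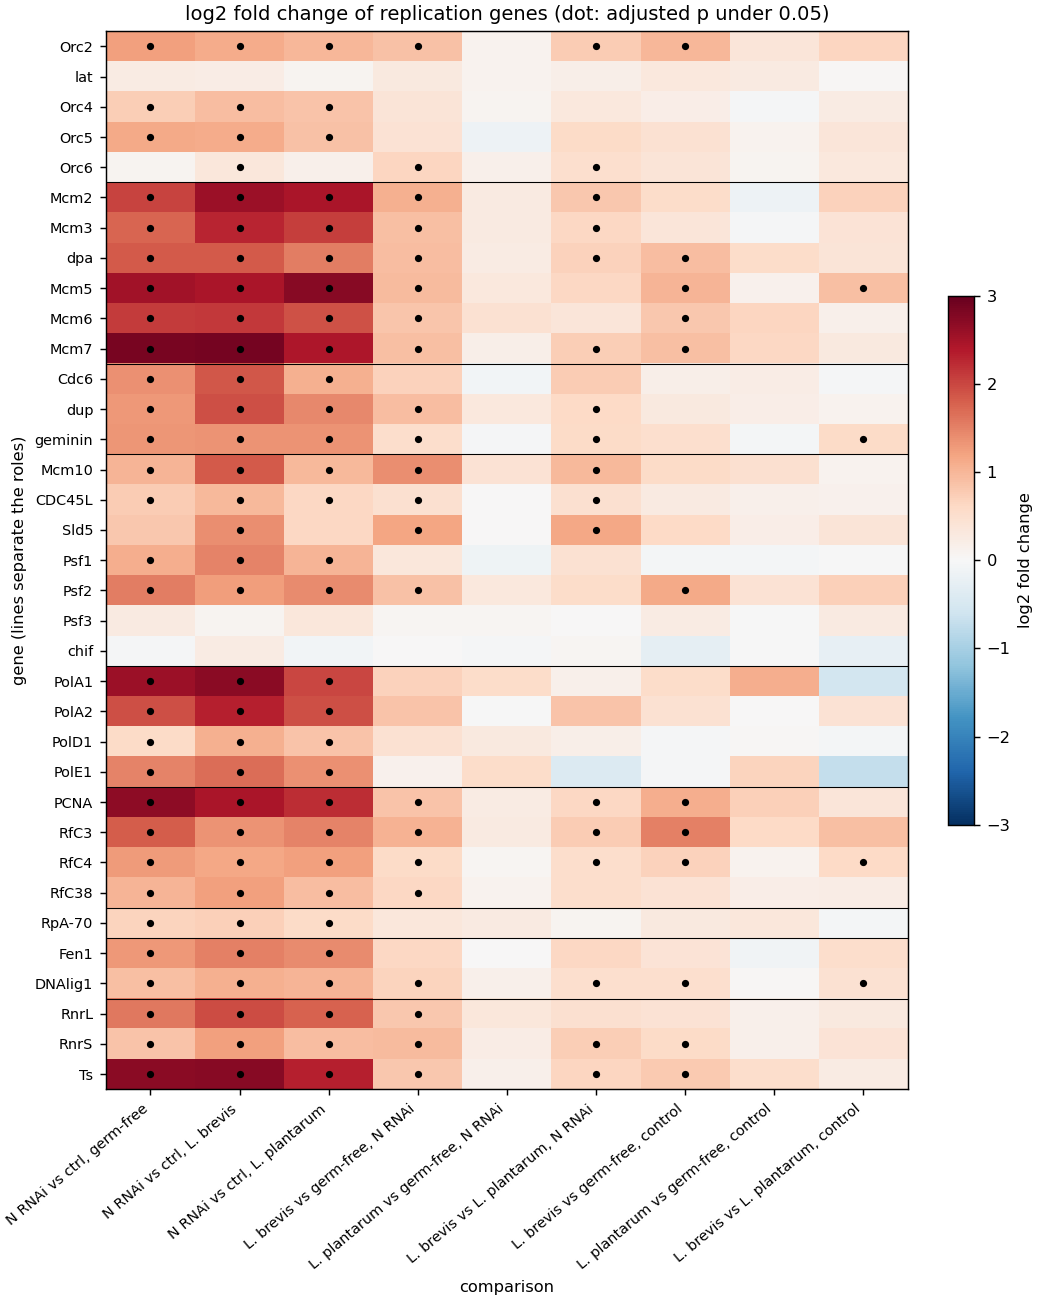
Log2 fold change (colour) of the 35 replication genes (rows, in blocks by role) in 9 comparisons (columns); a dot marks an adjusted p under 0.05 from edgeR. The 3 Notch RNAi columns are dotted for 30, 32 and 30 genes, the L. brevis columns for 22, 17, 12 and 4, and the columns of L. plantarum against germ-free for 0.

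Of the 5 matched subunits of the origin recognition complex, 3, 4 and 3 were called higher in germ-free, L. brevis and L. plantarum flies. Orc2 (FBgn0015270, 3R:13964885-13967075, plus strand), a core subunit, had the largest mean change of the complex. In controls Orc2 was at 2.64 and 2.68 CPM germ-free, 4.39, 4.97 and 6.57 CPM with L. brevis and 3.37, 3.41 and 3.40 CPM with L. plantarum. Under Notch RNAi it was at 6.37, 5.91 and 6.45 CPM germ-free, 11.7, 12.7 and 9.90 CPM with L. brevis and 6.32, 6.14 and 7.76 CPM with L. plantarum. Within each condition the Notch RNAi libraries of Orc2 lay above the controls, while the germ-free Notch RNAi values fell in the range of the L. brevis controls. The log2 fold changes of Orc2 were 1.23 ± 0.20, 1.11 ± 0.17 and 0.99 ± 0.17 (edgeR adjusted p = 2.24e-04, 7.18e-05 and 3.20e-04). Orc4 and Orc5, further core subunits, rose in all 3 conditions, by 0.74 to 0.92 and 0.89 to 1.13.

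Orc6 and lat moved little. Orc6 (FBgn0023180, 2R:9845458-9846485, minus strand), the smallest subunit, was at 8.80 and 11.3 CPM in germ-free controls, 13.1, 14.3 and 12.0 CPM in L. brevis controls and 10.5, 9.85 and 11.4 CPM in L. plantarum controls. Orc6 under Notch RNAi was at 11.7, 10.4 and 9.83 CPM, 16.4, 17.5 and 15.7 CPM and 11.8, 11.6 and 11.8 CPM in the same order. The genotypes overlapped in germ-free flies and separated narrowly in the others. Only the L. brevis difference passed the test (0.33 ± 0.12, edgeR adjusted p = 0.0402, lost in 6 of 12 alternatives), the others being 0.09 ± 0.14 and 0.15 ± 0.12. The Orc3 gene lat (FBgn0005654, 2R:13202728-13206547, minus strand) was at 4.88 and 4.71 CPM, 5.36, 6.22 and 6.31 CPM and 6.33, 5.30 and 5.70 CPM in germ-free, L. brevis and L. plantarum controls. Its Notch RNAi values were 6.04, 5.50 and 5.64 CPM, 7.34, 7.30 and 6.30 CPM and 5.36, 5.88 and 7.22 CPM. The genotypes overlapped with either bacterium and lay close together in germ-free flies, and differences of 0.25, 0.23 and 0.09 were not called (edgeR adjusted p = 0.283, 0.25 and 0.69). The exons of lat are shared over 3315 bases with CG34315 on the same strand, and the 2 genes have identical counts in every library, so the value cannot be assigned to either.

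All 6 subunits of the Mcm2-7 ring, the motor of the replicative helicase, rose in all 3 conditions, and their sum was 4.11, 4.84 and 4.14 times the control mean in germ-free, L. brevis and L. plantarum flies. Mcm7 (FBgn0020633, 3L:8891596-8894310, plus strand) had the largest mean change of the 35 genes. In controls Mcm7 was at 3.12 and 1.94 CPM germ-free, 5.30, 3.72 and 5.37 CPM with L. brevis and 3.998, 4.25 and 3.48 CPM with L. plantarum. Mcm7 under Notch RNAi was at 18.2, 14.1 and 23.3 CPM, 37.2, 37.2 and 30.3 CPM and 18.6, 18.9 and 25.2 CPM. The lowest Notch RNAi library exceeded the highest control of any condition. The log2 fold changes were 2.85 ± 0.27, 2.86 ± 0.22 and 2.42 ± 0.22, that is 7.22, 7.26 and 5.35-fold (edgeR adjusted p = 1.62e-06, 9.08e-08 and 7.84e-07). An antisense RNA, asRNA:CR45871, overlaps 2003 bases of Mcm7 exon and changed by 2.71 on average, and since the use of strand is not given in the sources used here, reads of the pair cannot be told apart.

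The smallest change of the ring was that of dpa (FBgn0015929, 2R:7496702-7500145, minus strand), the fly Mcm4. In controls dpa was at 7.77 and 7.64 CPM germ-free, 12.6, 17.2 and 14.4 CPM with L. brevis and 12.5, 9.05 and 12.5 CPM with L. plantarum. Its Notch RNAi libraries held 29.0, 23.0 and 30.8 CPM, 55.5, 60.1 and 42.5 CPM and 29.3, 26.6 and 42.1 CPM. Even here no Notch RNAi library reached down to a control, and the rises were 1.84 ± 0.23, 1.84 ± 0.20 and 1.52 ± 0.20 (edgeR adjusted p = 2.39e-05, 2.08e-06 and 2.06e-05). Mcm2 (FBgn0014861, 3R:8264970-8267924, plus strand) was at 4.67 and 5.83 CPM, 6.88, 8.93 and 7.05 CPM and 5.44, 4.13 and 4.55 CPM in the 3 control groups. Mcm2 under Notch RNAi was at 22.2, 18.6 and 23.8 CPM, 46.8, 51.1 and 36.7 CPM and 20.6, 25.0 and 31.7 CPM, without overlap in any condition, and rose by 2.04, 2.56 and 2.45. The other ring subunits Mcm3, Mcm5 and Mcm6 rose by 1.74 to 2.73.

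The ring works as 1 copy of each subunit, and levels per kilobase of exon can be set against each other. In every group Mcm5 was lowest and Mcm3 highest. The ratio of Mcm3 to Mcm5 in CPM per kb was 4.48, 2.84 and 4.02 in germ-free, L. brevis and L. plantarum controls and 2.62, 2.51 and 2.54 under Notch RNAi, a difference between genotypes that was not tested. In the origin recognition complex the ratio of the highest to the lowest subunit stayed between 6.40 and 8.08 in all 6 groups, with Orc4 or Orc6 highest and Orc2 or lat lowest.

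**Figure D3:**
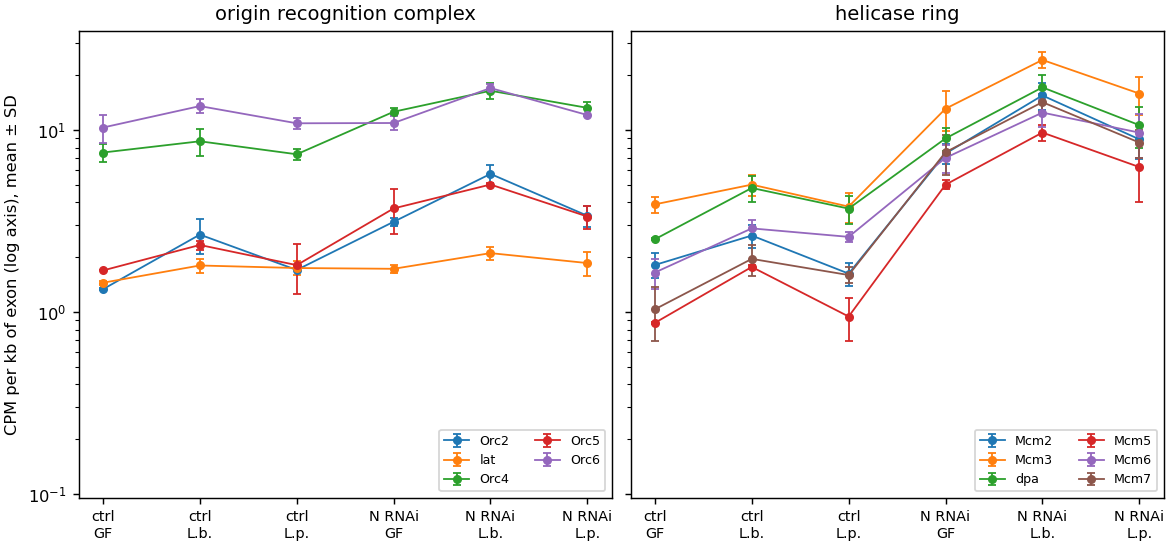
Level per kilobase of exon (CPM per kb, log axis) of the matched origin recognition complex subunits (left) and of the Mcm2-7 ring (right) in the 6 groups (ctrl, control; N RNAi, Notch RNAi; GF, germ-free; L.b., L. brevis; L.p., L. plantarum), as mean ± SD over 2 or 3 libraries. The ring subunits all lie higher in each Notch RNAi group than in any control group, by differing amounts. The group means of lat stay between 1.45 and 2.11 CPM per kb.

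The ring loaders rose together with their inhibitor, 3 of 3 in every condition. The Cdt1 gene dup (FBgn0000996, 2R:15376619-15380988, minus strand), whose product brings the ring to origins, was at 10.7 and 9.20 CPM in germ-free, 14.3, 11.7 and 10.6 CPM in L. brevis and 11.7, 12.2 and 10.1 CPM in L. plantarum controls. With Notch RNAi dup was at 27.2, 18.9 and 27.8 CPM, 47.9, 50.8 and 40.6 CPM and 28.9, 26.9 and 36.7 CPM. All Notch RNAi libraries lay above all controls, and dup rose by 1.31 ± 0.20, 1.93 ± 0.17 and 1.44 ± 0.17 (edgeR adjusted p = 1.21e-04, 3.55e-07 and 9.34e-06). The gene geminin (FBgn0033081, 2R:6655463-6656594, minus strand), which encodes the inhibitor of Cdt1, was at 19.2 and 15.8 CPM, 27.1, 21.7 and 25.7 CPM and 19.1, 15.03 and 16.0 CPM in the control groups. Under Notch RNAi geminin was at 40.7, 41.1 and 48.8 CPM, 61.4, 66.7 and 60.7 CPM and 36.3, 40.7 and 49.6 CPM, again above every control. Its rises were nearly equal in the 3 conditions, at 1.31 ± 0.16, 1.34 ± 0.14 and 1.34 ± 0.14 (edgeR adjusted p = 1.42e-05, 1.13e-06 and 2.12e-06). Cdc6, the ATPase that loads the ring with the origin recognition complex, rose by 1.36, 1.87 and 1.06. Per kilobase, geminin was the most abundant of the 35 genes in each control group, at 15.8 to 23.4 CPM per kb.

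Helicase activation was split, with 4, 5 and 4 of 7 genes called higher. Psf2 (FBgn0261976, 2L:4386182-4387356, minus strand), a GINS subunit, changed most. In controls Psf2 was at 2.37 and 1.43 CPM germ-free, 5.23, 3.29 and 4.21 CPM with L. brevis and 2.81, 2.95 and 1.99 CPM with L. plantarum. Psf2 under Notch RNAi was at 5.48, 4.97 and 6.27 CPM, 9.20, 10.7 and 10.7 CPM and 6.32, 6.63 and 7.86 CPM. The genotypes did not overlap within a condition, although a germ-free Notch RNAi library at 4.97 CPM lay below an L. brevis control at 5.23 CPM. The rises were 1.54 ± 0.26, 1.26 ± 0.22 and 1.43 ± 0.23 (edgeR adjusted p = 3.70e-04, 2.56e-04 and 1.51e-04). Psf1, CDC45L and Mcm10 rose in all 3 conditions, by 1.02 to 1.48, 0.62 to 0.97 and 0.98 to 1.83. The GINS subunit Sld5 rose with L. brevis (1.39 ± 0.30, edgeR adjusted p = 0.00145) and stood at 0.80 and 0.63, not called, in germ-free and L. plantarum flies. Mcm10 lies antisense to Ret over 367 bases of exon, and Ret changed by -0.83 on average. The Mcm10 calls were lost in 6 of 11 alternatives in germ-free flies, among them the replicate block and the compared groups alone. With L. plantarum they were lost in 4 of 12.

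The remaining activation genes, Psf3 and chif, were the flattest. Psf3 (FBgn0030196, X:10383353-10385861, minus strand), also of GINS, was at 14.1 and 9.89 CPM in germ-free, 13.9, 14.7 and 14.2 CPM in L. brevis and 9.18, 12.6 and 13.9 CPM in L. plantarum controls. Psf3 under Notch RNAi was at 13.8, 15.1 and 14.6 CPM, 16.2, 13.2 and 16.0 CPM and 17.2, 15.4 and 12.5 CPM. The genotypes overlapped in all 3 conditions (differences 0.27 ± 0.19, 0.08 ± 0.17 and 0.34 ± 0.17, edgeR adjusted p = 0.308, 0.727 and 0.143). Its exons overlap those of CG17841 on the other strand over 831 bases, and CG17841 has 70025 counts over all libraries against 7507 for Psf3. CG17841 changed by -0.39 on average, and since the use of strand is not given, the value of Psf3 is uncertain. The gene chif (FBgn0000307, 2L:16342430-16352628, minus strand), which encodes the partner of the Cdc7 kinase and in flies also a protein of a histone acetyltransferase complex, was at 44.6 and 47.8 CPM, 34.8, 43.2 and 37.7 CPM and 41.6, 49.4 and 46.9 CPM in the control groups. In Notch RNAi flies chif was at 47.2, 46.5 and 41.5 CPM, 40.7, 52.0 and 43.6 CPM and 39.3, 44.6 and 47.2 CPM. Control and Notch RNAi libraries were interleaved, with differences of -0.04 ± 0.13, 0.24 ± 0.11 and -0.07 ± 0.11 (edgeR adjusted p = 0.86, 0.103 and 0.675). Hyls1 shares 1507 bases of exon with chif on the same strand, which leaves the share of chif in this value uncertain. Cdc7 itself, the kinase that chif activates, rose by 1.06, 1.15 and 1.06 (edgeR adjusted p = 7.72e-05, 4.64e-06 and 1.64e-05).

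All 4 polymerase subunits rose in all 3 conditions. PolA1 (FBgn0259113, 3R:21666562-21671750, minus strand), the catalytic subunit of polymerase alpha, was in controls at 1.79 and 0.648 CPM germ-free, 0.742, 1.416 and 3.33 CPM with L. brevis and 1.59, 2.90 and 3.56 CPM with L. plantarum. Under Notch RNAi PolA1 was at 8.74, 6.53 and 6.87 CPM, 11.8, 14.97 and 9.31 CPM and 9.35, 8.80 and 14.3 CPM. All Notch RNAi libraries lay above all controls, whose replicates were widely spread with L. brevis, and the rises were 2.56 ± 0.57, 2.71 ± 0.48 and 2.01 ± 0.46 (edgeR adjusted p = 0.00338, 3.78e-04 and 0.00383). PolA1 was scarce in controls, at 0.648 CPM in its lowest library, which limits how exactly its rises are known. PolD1 (FBgn0263600, 3L:15984322-15987815, minus strand), the catalytic subunit of the lagging strand polymerase delta, changed least of the 4. In controls PolD1 was at 7.95 and 8.42 CPM germ-free, 7.49, 9.98 and 6.67 CPM with L. brevis and 8.22, 9.81 and 6.999 CPM with L. plantarum. PolD1 under Notch RNAi was at 12.5, 14.0 and 10.3 CPM, 15.4, 20.6 and 14.8 CPM and 14.5, 14.6 and 15.8 CPM. It rose by 0.58 ± 0.20, 1.07 ± 0.18 and 0.84 ± 0.18 without overlap within a condition (edgeR adjusted p = 0.0395, 1.89e-04 and 0.00182). PolA2, the second subunit of polymerase alpha, rose by 1.93 to 2.34, and PolE1, the catalytic subunit of the leading strand polymerase epsilon, by 1.37 to 1.67. Per kilobase PolD1 was the highest and PolE1 the lowest polymerase subunit in every group, with PolE1 at 0.199 to 0.318 CPM per kb in controls and 0.561 to 0.817 CPM per kb under Notch RNAi.

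The clamp and all 3 matched clamp loader subunits rose in all 3 conditions. PCNA (FBgn0005655, 2R:20261754-20262883, minus strand), the sliding clamp and a widely used S phase marker, was at 8.98 and 5.92 CPM in germ-free, 17.1, 16.2 and 14.3 CPM in L. brevis and 14.2, 10.3 and 12.3 CPM in L. plantarum controls. PCNA under Notch RNAi was at 44.7, 37.7 and 61.3 CPM, 83.8, 87.4 and 89.8 CPM and 51.6, 46.6 and 72.3 CPM. The lowest Notch RNAi library was at 37.7 CPM and the highest control at 17.1 CPM, and the rises were 2.68 ± 0.25, 2.45 ± 0.21 and 2.21 ± 0.21, or 6.39, 5.48 and 4.62-fold (edgeR adjusted p = 1.88e-06, 2.70e-07 and 1.20e-06). Per kilobase PCNA was the most abundant of the 35 genes in each Notch RNAi group, at 44.8, 81.3 and 53.1 CPM per kb, where the corresponding controls had 6.96, 14.8 and 11.5 CPM per kb. RfC38 (FBgn0028700, 2L:11128932-11130645, minus strand), a clamp loader subunit, was at 7.43 and 6.48 CPM, 10.3, 7.38 and 10.4 CPM and 9.18, 8.46 and 6.46 CPM in the control groups. With Notch RNAi RfC38 was at 14.1, 12.6 and 15.6 CPM, 20.6, 25.4 and 19.4 CPM and 14.5, 12.4 and 18.5 CPM. It changed least of the role yet did not overlap in any condition, rising by 1.01 ± 0.21, 1.22 ± 0.19 and 0.92 ± 0.19 (edgeR adjusted p = 0.00197, 7.46e-05 and 0.00126). Nup160 overlaps 404 bases of its exons on the other strand and changed by 0.64 on average, so the value of RfC38 is uncertain. RfC3 and RfC4, the other loader subunits, rose by 1.34 to 1.81 and by 1.16 to 1.29.

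RpA-70 (FBgn0010173, 3R:8262120-8264451, minus strand), the large subunit of the protein that coats single-stranded DNA, rose the least of the genes called in all 3 conditions. In controls RpA-70 was at 16.4 and 17.7 CPM germ-free, 19.8, 17.7 and 25.3 CPM with L. brevis and 23.9, 18.7 and 22.4 CPM with L. plantarum. RpA-70 under Notch RNAi was at 23.9, 26.6 and 30.7 CPM, 35.1, 35.9 and 31.9 CPM and 32.8, 28.3 and 36.4 CPM. The genotypes did not overlap within a condition, though germ-free Notch RNAi overlapped with L. brevis controls. The rises were 0.67 ± 0.16, 0.71 ± 0.14 and 0.58 ± 0.14 (edgeR adjusted p = 0.00546, 8.90e-04 and 0.00512).

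Both genes of lagging strand maturation rose in all 3 conditions. Fen1 (FBgn0025832, 2R:16854025-16855464, minus strand), the flap nuclease, was at 9.28 and 8.25 CPM in germ-free, 14.2, 10.3 and 10.7 CPM in L. brevis and 11.8, 6.95 and 5.78 CPM in L. plantarum controls. Fen1 under Notch RNAi was at 22.0, 18.4 and 24.4 CPM, 31.0, 41.2 and 28.0 CPM and 23.2, 19.1 and 22.8 CPM. All Notch RNAi libraries exceeded all controls, with rises of 1.30 ± 0.26, 1.51 ± 0.23 and 1.41 ± 0.23 (edgeR adjusted p = 0.00137, 6.68e-05 and 1.93e-04). DNAlig1 (FBgn0262619, 2R:23890512-23893177, plus strand), the ligase that seals the fragments, was at 9.65 and 8.29 CPM, 13.0, 12.4 and 12.6 CPM and 8.85, 9.43 and 9.41 CPM in the control groups. Under Notch RNAi DNAlig1 was at 18.2, 15.2 and 17.3 CPM, 28.0, 27.1 and 25.0 CPM and 20.2, 17.7 and 18.5 CPM. Its replicates lay close together, and rises of 0.91 ± 0.12, 1.07 ± 0.11 and 1.03 ± 0.11 had the smallest errors among the 35 genes' called changes (edgeR adjusted p = 4.67e-05, 1.01e-06 and 2.92e-06).

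The 3 genes of nucleotide supply rose in all 3 conditions. Ts (FBgn0024920, 2L:2968293-2969638, minus strand), thymidylate synthase, was at 2.97 and 3.28 CPM in germ-free, 5.06, 6.75 and 4.24 CPM in L. brevis and 4.04, 4.21 and 5.28 CPM in L. plantarum controls. Ts under Notch RNAi was at 18.9, 18.3 and 24.0 CPM, 37.3, 37.1 and 32.3 CPM and 20.6, 20.7 and 27.1 CPM. The lowest Notch RNAi library, at 18.3 CPM, was above the highest control, at 6.75 CPM. The rises of 2.71 ± 0.22, 2.73 ± 0.18 and 2.34 ± 0.18 carried the lowest adjusted p of the 35 genes in germ-free and L. brevis flies (edgeR adjusted p = 4.24e-07, 2.29e-08 and 1.80e-07). RnrL (FBgn0011703, 2L:10325026-10327943, minus strand), the large subunit of ribonucleotide reductase, was at 9.10 and 13.5 CPM, 18.2, 15.1 and 12.7 CPM and 12.3, 12.7 and 12.7 CPM in the control groups and at 33.9, 29.5 and 38.6 CPM, 62.6, 63.5 and 53.4 CPM and 38.4, 38.8 and 51.9 CPM under Notch RNAi, without overlap. RnrS (FBgn0011704, 2R:11983145-11985393, minus strand), the small subunit, was at 16.6 and 18.7 CPM, 29.3, 22.5 and 27.3 CPM and 20.6, 17.7 and 20.9 CPM in controls. With Notch RNAi RnrS was at 30.7, 28.6 and 36.6 CPM, 59.1, 67.6 and 58.8 CPM and 32.5, 34.1 and 45.3 CPM, separated from controls of the same condition. RnrL rose by 1.59 ± 0.20, 1.97 ± 0.17 and 1.78 ± 0.17 and RnrS by 0.86 ± 0.16, 1.23 ± 0.14 and 0.92 ± 0.14 (edgeR adjusted p = 2.11e-05, 2.80e-07 and 1.23e-06 for RnrL and 8.26e-04, 4.58e-06 and 1.18e-04 for RnrS). Per kilobase Ts was the lowest of the 3 in controls and RnrL under Notch RNAi, and the highest in all 6 groups was RnrS.

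**Figure D4:**
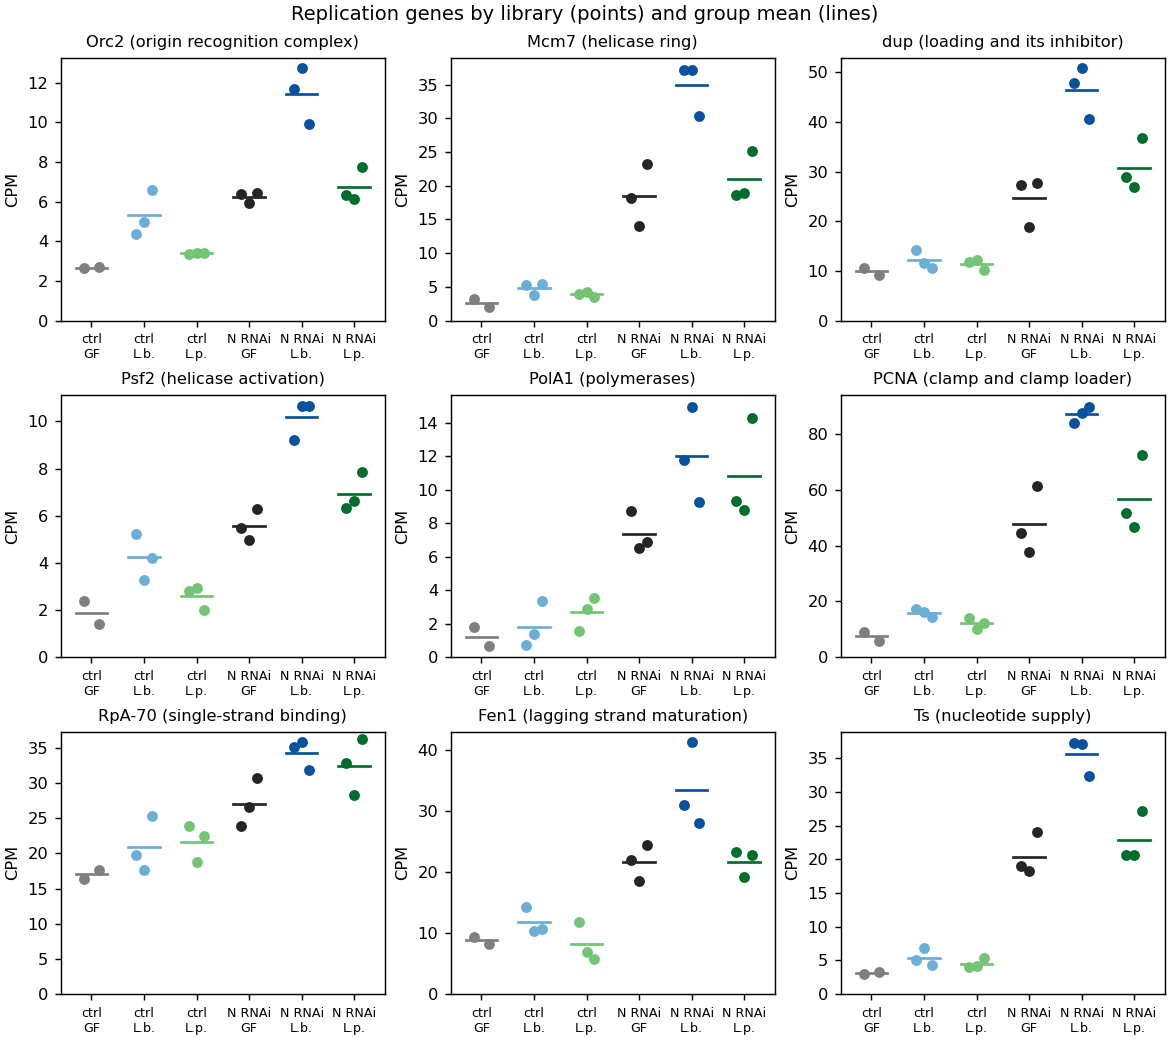
CPM in each library (points) with group means (lines) for the gene with the largest mean Notch RNAi change of each of the 9 roles (ctrl, control; N RNAi, Notch RNAi; GF, germ-free; L.b., L. brevis; L.p., L. plantarum); axes are linear and start at 0. For Mcm7, dup, PCNA, Fen1 and Ts every Notch RNAi library lies above every control library, and for Orc2 and Psf2 the separation holds within a condition.

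Replication genes outside the 35 rose as well. A further 26 genes covered primase, polymerase accessory subunits, checkpoint mediators, chromatin assembly, topoisomerases and nucleotide metabolism. The shares of all tested genes called higher were 17.5%, 22.3% and 17.6% in germ-free, L. brevis and L. plantarum flies, and those called lower 14.7%, 20.3% and 16.2%. Of the 26 genes, 18, 22 and 20 were called higher and 0 lower, with medians of 1.05, 1.34 and 1.11. The 3 largest mean rises were those of PolE2, a polymerase epsilon subunit, Rif1, which restrains late replicating DNA, and Prim2, the large primase subunit, at 2.80 ± 0.21, 2.69 ± 0.23 and 2.36 ± 0.39 (edgeR adjusted p = 1.95e-08, 8.55e-08 and 7.83e-05). PolE2 was at 0.880 and 0.605 CPM in germ-free controls and 4.25, 3.57 and 5.37 CPM in germ-free Notch RNAi flies. Among the smallest mean differences were 0.15 ± 0.10 for PolD3, a polymerase delta subunit, and 0.17 ± 0.04 for topoisomerase Top1, of which Top1 was called (edgeR adjusted p = 0.208 and 0.00360).

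Among 10 genes that govern entry into S phase, 5, 8 and 6 were called higher and 1 lower in each condition. Over all tested genes 17.5%, 22.3% and 17.6% were called higher and 14.7%, 20.3% and 16.2% lower. CycE, the cyclin that triggers S phase, was at 2.46 and 2.12 CPM in germ-free, 2.80, 1.75 and 1.68 CPM in L. brevis and 2.59, 1.68 and 1.80 CPM in L. plantarum controls. CycE under Notch RNAi was at 10.03, 8.82 and 9.83 CPM, 19.6, 20.6 and 16.9 CPM and 10.9, 7.74 and 16.1 CPM, above every control. It rose by 2.06 ± 0.30, 3.19 ± 0.27 and 2.51 ± 0.27, and its partner kinase Cdk2 by 1.80, 1.70 and 1.01 (edgeR adjusted p = 1.03e-04, 2.10e-07 and 3.17e-06 for CycE). CG17267 overlaps 1010 of the 2299 exon bases of Cdk2 on the other strand, so the value of Cdk2 is uncertain. Dp, the partner of E2F, had the third largest mean rise of the list (0.69 ± 0.06, edgeR adjusted p = 1.20e-07). The activator E2f1 was at 98.9 and 92.8 CPM in germ-free controls and 115, 118 and 120.2 CPM in germ-free Notch RNAi flies, a small rise of 0.30 ± 0.09 (edgeR adjusted p = 0.0209), with 0.20 and 0.09, not called, in the bacterial conditions. Dref, a fly transcription factor that binds promoters of replication genes, and dap, the CycE-Cdk2 inhibitor, were called with L. brevis (0.56 and 0.49) and stood at 0.39 and 0.13 in germ-free and 0.37 and 0.09 in L. plantarum flies. The gene that fell was fzr, which activates the APC/C ubiquitin ligase in G1 and is needed for the switch to endocycles in flies. It was at 133 and 157 CPM, 130.5, 164 and 129.7 CPM and 143, 165 and 147.9 CPM in germ-free, L. brevis and L. plantarum controls. In Notch RNAi flies fzr was at 43.5, 39.4 and 42.0 CPM, 42.7, 54.6 and 38.2 CPM and 35.5, 48.9 and 48.8 CPM, below every control, with changes of -1.80 ± 0.16, -1.65 ± 0.15 and -1.77 ± 0.15 (edgeR adjusted p = 1.01e-06, 4.13e-07 and 3.46e-07).

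Markers of other cells were set beside these rises. Delta (Dl), the stem cell ligand, was the 1 progenitor marker called higher under Notch RNAi, at 9.24 to 37.3 CPM in controls and 89.3 to 216 CPM under Notch RNAi, while 4, 5 and 4 of the 6 were called lower, or 3, 4 and 3 without the RNAi target N, among them klu, a transcription factor of enteroblasts, by -4.73, -4.90 and -4.17. Of 7 enteroendocrine markers 3 were called higher and 2 lower in each condition, and of 7 enterocyte markers 0 were called higher and 4, 3 and 1 lower. Germline markers, whose source tissue replicates actively, summed to 3.52 to 5.11 CPM in controls and 4.37 to 6.62 CPM under Notch RNAi, with aub called higher in germ-free and L. plantarum flies and osk, bcd and otu below the filter. Follicle and eggshell markers summed to 1.01 to 3.51 CPM over all libraries, and visceral muscle markers reached 624 CPM in L. brevis control replicate 3, with 0 of 7 called. Of 4 fat body markers tested 0, 3 and 0 were called lower and 0 higher. Haemocyte markers summed to 10.02 to 25.3 CPM in controls and 38.5 to 116 CPM under Notch RNAi, a rise carried by Sr-CI, while Hml was at 0 to 0.685 CPM and NimC1 at 0 to 0.377 CPM. Of the 5 haemocyte markers, which also include Pxn and eater, 3 were tested, and 1 was called higher and 0 lower in each condition. The part of these cells in the rise of the replication genes was not tested.

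The bacteria were compared within each genotype, which asks whether colonisation alters replication gene expression. In Notch RNAi flies L. brevis went with higher expression than germ-free conditions for 22 of the 35 genes and lower expression for 0, where 4.87% of all tested genes were called higher and 4.49% lower. All 35 differences were positive, with a median of 0.70 against -0.003 for all genes, and 32 genes had groups that did not overlap, against 17.6% of all genes. The summed level rose from a mean of 651 ± 68.0 CPM to 1050 ± 90.1 CPM (SD, n = 3 each). By role, 6 of 6 ring subunits, 4 of 4 clamp and loader genes, 3 of 3 nucleotide supply genes, 4 of 7 activation genes, 2 of 3 loading genes, 2 of 5 origin recognition subunits, 1 of 2 maturation genes and 0 of 4 polymerase subunits were called, the lowest adjusted p of a polymerase being 0.0805, for PolA2. Leaving out germ-free Notch RNAi replicate 2 lowered the count to 7, and leaving out L. brevis Notch RNAi replicate 2 to 11. The median stayed between 0.65 and 0.84 without any single library.

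RnrS had the lowest adjusted p of this comparison, rising from 30.7, 28.6 and 36.6 CPM in germ-free to 59.1, 67.6 and 58.8 CPM in L. brevis Notch RNAi flies (0.95 ± 0.14, edgeR adjusted p = 0.00153). DNAlig1 followed, from 18.2, 15.2 and 17.3 CPM to 28.0, 27.1 and 25.0 CPM (0.66 ± 0.11, edgeR adjusted p = 0.00221). In both genes the lowest L. brevis library was above the highest germ-free one. Mcm2 rose by 1.06 ± 0.18, dup by 0.92 ± 0.17, Orc2 by 0.87 ± 0.17 and Orc6 by 0.64 ± 0.12 (edgeR adjusted p = 0.00280, 0.00459, 0.00600 and 0.00619), and the largest of all was Mcm10 at 1.39 ± 0.29. For Orc6 the differences between genotypes, which share these libraries, had been 0.09 and 0.33. RnrL and dpa rose by 0.81 ± 0.16 and 0.93 ± 0.19 (edgeR adjusted p = 0.00772 and 0.00803). At the other end, chif, Psf3 and PolE1 differed by 0.01, 0.06 and 0.13. The calls of 7 of the 22 genes held under every alternative setting, and 15 were lost under at least 1. Of the 26 other replication genes 9 were called higher, and of the 10 genes of S phase entry 7, against 4.87% of all tested genes.

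L. plantarum against germ-free in Notch RNAi flies gave 0 calls among the 35 genes by edgeR and 0 by DESeq2, with 1 gene at an unadjusted p under 0.05, where 0.136% of all genes were called in either direction and 10.6% had such a p. The median difference was 0.16 against -0.004 for all genes, and the lowest adjusted p 0.404, for Mcm6 (0.46 ± 0.19). L. plantarum Notch RNAi replicate 3 stood apart, holding the highest value of its group for 30 of the 35 genes, and without it the median difference was 0.04. Without germ-free Notch RNAi replicate 2 the median was 0.09. L. brevis against L. plantarum, which shares the L. brevis libraries with the first comparison, gave 17 higher and 0 lower, where 7.36% of all genes were called higher and 7.0% lower, with a median of 0.58 against -0.007 for all genes. The lowest adjusted p was again that of RnrS (0.73 ± 0.14, edgeR adjusted p = 0.00694), with L. plantarum libraries at 32.5, 34.1 and 45.3 CPM, all below those with L. brevis. The ring subunits differed by 0.36 to 0.80, 4 of 6 being called, and none of the 4 polymerase subunits was called, PolE1 standing at -0.41. Without any single library the median stayed between 0.49 and 0.69, but this count shifted. It was 7 and 2 without L. brevis replicates 1 and 2, 3 and 1 without L. plantarum replicates 1 and 2, and 22 without L. plantarum replicate 3.

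In control flies, too, replication genes were called higher with L. brevis and none lower. L. brevis against germ-free gave 12 higher and 0 lower of 35, where 5.01% of all genes were called higher and 2.95% lower, with a median of 0.47 against 0.006 for all genes and 31 positive differences. The 12 were Orc2, dpa, Mcm5, Mcm6, Mcm7, Psf2, PCNA, RfC3, RfC4, DNAlig1, RnrS and Ts. All 12 were also among the 22 genes called between these conditions under Notch RNAi. These comparisons share no library, but both were tested in the same fit with a shared estimate of spread. The overlap is therefore not independent agreement, and its share over all genes was not counted. RfC3, a clamp loader subunit, had the largest difference, from 1.85 and 1.38 CPM in germ-free to 6.04, 4.41 and 3.37 CPM in L. brevis controls (1.5 ± 0.29, edgeR adjusted p = 0.0103). PCNA rose from 8.98 and 5.92 CPM to 17.1, 16.2 and 14.3 CPM (1.08 ± 0.24, edgeR adjusted p = 0.0161). For both genes no L. brevis control reached down to a germ-free control. Orc2 rose by 1.00 ± 0.20 and DNAlig1 by 0.50 ± 0.12, whereas dup, called under Notch RNAi, differed by 0.29 ± 0.19 (edgeR adjusted p = 0.364). These calls rested on 2 germ-free libraries and on the spread shared over all groups. The count was 3 without germ-free control replicate 1, 0 without replicate 2, 4 without L. brevis control replicate 1 and 0 when only the 5 libraries compared were fitted.

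In controls L. plantarum against germ-free gave 0 calls by edgeR and 0 by DESeq2, with 6 genes at an unadjusted p under 0.05, where 0.161% of all genes were called in either direction and 14.5% had such a p. The median was 0.16 against 0.021 for all genes, or 0.29 without germ-free control replicate 1, and the lowest adjusted p was 0.191, for PCNA (0.71 ± 0.23). L. brevis against L. plantarum gave 4 higher and 0 lower, where 0.976% of all genes were called higher and 1.83% lower, with a median of 0.30 against 0.011 for all genes. These were RfC4 (0.59 ± 0.12), DNAlig1 (0.46 ± 0.11), geminin (0.57 ± 0.14) and Mcm5 (0.90 ± 0.23), with edgeR adjusted p = 0.0267, 0.0377, 0.0377 and 0.0491. The count fell to 0 without L. brevis replicate 1 or L. plantarum replicate 2 or 3 and to 2 without L. brevis replicate 2 or 3, and was 8 without L. plantarum replicate 1. PolE1 stood at -0.72, not called (edgeR adjusted p = 0.215).

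The share of ribosomal RNA and the levels of some cell markers also differed between bacterial conditions. Ribosomal RNA genes took 12.7 to 17.2% of counts in germ-free, 10.3 to 11.2% in L. brevis and 10.03 to 11.8% in L. plantarum Notch RNAi libraries, and 18.5 and 18.9%, 12.9 to 15.4% and 11.6 to 13.6% in the control groups. With those genes left out before scaling, 22 and 10 replication genes were called for L. brevis against germ-free under Notch RNAi and in controls. Under Notch RNAi, Dl was at 93.2, 109 and 89.3 CPM in germ-free, 216, 199 and 151 CPM in L. brevis and 104, 111 and 122 CPM in L. plantarum flies. Haemocyte markers summed to 38.5 to 50.1, 96.0 to 116 and 76.6 to 88.9 CPM in the same groups, mostly Sr-CI. Enteroendocrine markers summed to 2965 to 3922, 3863 to 4812 and 3247 to 3410 CPM. In germ-free, L. brevis and L. plantarum controls Dl was at 15.1 and 9.24 CPM, 31.9, 22.4 and 37.3 CPM and 23.1, 20.3 and 21.3 CPM. Enteroendocrine markers in controls summed to 3544 and 4112, 4247 to 6119 and 4997 to 5698 CPM, and haemocyte markers to 12.6 and 21.4, 16.9 to 25.3 and 10.02 to 17.6 CPM. The part of the marked cells in the L. brevis difference was not tested.

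Whether the Notch RNAi effect differed between bacterial conditions was tested by interaction terms. None of the 35 genes was called for L. brevis minus germ-free, L. plantarum minus germ-free or L. brevis minus L. plantarum, by edgeR or DESeq2, where 0.798%, 0.0255% and 0.017% of all genes were called in either direction. Of the 35, 1, 0 and 0 had an unadjusted p under 0.05, against 15.4%, 12.1% and 9.39% of all genes. The medians were 0.18, -0.07 and 0.22, and these were unstable. The first was 0.06 without germ-free control replicate 1, 0.03 without L. brevis Notch RNAi replicate 2 and 0.28 without its replicate 3. Leaving out 1 library put the second between -0.18, without L. plantarum Notch RNAi replicate 3, and 0.01, without germ-free Notch RNAi replicate 3. The third ran from 0.14, without L. brevis Notch RNAi replicate 2, to 0.37, without L. plantarum Notch RNAi replicate 3. The lowest adjusted p-values were 0.249 for dup (0.62 ± 0.25), 0.556 for PCNA (-0.47 ± 0.30) and 0.542 for Cdc6 (0.81 ± 0.39). The Notch RNAi change was largest with L. brevis for 25 of the 35 genes, in germ-free flies for 8 and with L. plantarum for 2, an order that no test of a difference bears out.

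The authors' deposited tables of these comparisons, which list 10201 genes and all 35 replication genes, were set beside the fit. At a false discovery rate under 0.05 in the authors' deposited table, 30, 31 and 30 of the 35 were higher under Notch RNAi in germ-free, L. brevis and L. plantarum flies, where 18.6%, 23.3% and 19.0% of listed genes were higher. In the authors' deposited table for Notch RNAi flies, 22 were higher with L. brevis than germ-free, 20 with L. brevis than L. plantarum and 0 with L. plantarum than germ-free (5.88%, 7.66% and 0.637% of listed genes). For controls the authors' deposited table gave 7 higher with L. brevis than L. plantarum and 0 with L. plantarum than germ-free (1.62% and 0.716% of listed genes). No replication gene was lower at a false discovery rate under 0.05 in any of these 8 tables. They do not include L. brevis against germ-free in controls, so those calls could not be set beside the authors'.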

How the data were processed

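Deposited counts per gene from the authors, raw whole numbers, were the input. Per the submitters' processing notes, FastQC, Trimmomatic, HISAT2, SAMtools and edgeR were used. The counting tool, genome build, annotation and use of strand are not given in the sources used here. All 17 libraries entered one edgeR 4.0.16 quasi-likelihood fit (R 4.3.3, TMM scaling, robust dispersion, common biological coefficient of variation 0.23) after filtering by group, which kept 11786 of 17737 genes and 99.985% of counts. Benjamini-Hochberg adjustment ran over all tested genes. SE was the log2 fold change divided by the root of the F statistic. CPM was computed here from the counts. The authors' deposited log2 fold changes, p-values and false discovery rates were used only where named. DESeq2 1.42.0, its size factors, no filter, removal of ribosomal RNA genes, a replicate block, the compared groups alone and each library left out were the alternatives.

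Symbols came from a gene name table that matched 17599 identifiers, and coordinates from Ensembl BDGP6. Genes given for every library were, per role, those with the largest and smallest mean Notch RNAi change, those not called there, and the 8 with the lowest adjusted p between bacterial conditions. The members and lists were chosen with earlier results of these data known. One gene of the other lists is counted but not reported here by name. Replicates are separately numbered samples by label, each a pool of guts. The p-values set a difference against the spread between replicates, estimated over all groups in one fit. The scripts were tested on simulated data.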

Additional observations from a re-analysis of the deposited data

How the results depend on the processing

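No called gene reversed its direction under any alternative run. Without single libraries the counts of genes called for Notch RNAi were 25 to 29 (germ-free), 31 to 33 (L. brevis) and 29 to 30 (L. plantarum), and the L. brevis median ran from 1.30 to 1.56. Counts between bacterial conditions were less stable. Under Notch RNAi, L. brevis against germ-free gave 7 to 21 and L. brevis against L. plantarum 1 to 22, the latter 26 by DESeq2. In controls, L. brevis against germ-free gave 0 to 10, and 0 with the compared groups alone. L. brevis against L. plantarum in controls gave 0 to 8, 2 with no filter, 0 with the compared groups alone and 8 by DESeq2. The median differences of Notch RNAi effects ran from 0.03 to 0.28 (L. brevis minus germ-free), -0.18 to 0.01 (L. plantarum minus germ-free) and 0.14 to 0.37 (L. brevis minus L. plantarum). Why these counts and medians shifted was not tested. In their deviations from group means, same-numbered replicates correlated at -0.12 to 0.18 and differently numbered ones at -0.26 to 0.26. With 2 or 3 libraries per group, this cannot decide whether same-numbered samples share a batch. With the replicate number as a block, 29, 32 and 30 genes were called for Notch RNAi, 23 and 19 for L. brevis against germ-free and L. plantarum under Notch RNAi, and 9 and 5 in controls. Depth limits the scarcer genes, such as PolE1 with 23 and PolA2 with 22 counts in their lowest libraries. PolA1 was also scarce, at a mean of 0.264 CPM per kb in germ-free controls.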
